A study of Mus musculus with 4 samples.

Results

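The data described here are the levels of 8 transcription regulators of the epithelial lineage, Foxi1, Trp63, Pax2, Pax8, Cited1, Cited2, Etv4 and Etv5, in single cells of the mouse epididymis and vas deferens. The members were chosen by name, as 8 of the 16892 genes in the deposited single-cell matrix, and all 8 had UMIs in it. A UMI is a barcode that marks 1 captured RNA molecule. Each member was read in 8880 cells from 4 libraries, 1 each for caput, corpus and cauda epididymis and vas deferens, the tube's successive regions from the testis outward. Each library pooled 8 tissue samples from 4 FVB/NJ males of 10 to 12 weeks. None of the mice was treated or carried a listed allele. The pooled mice cannot be separated and each region had 1 library, so no difference between regions could be tested, and region cannot be told apart from library. The deposited annotation, used here, put the cells into 34 populations. These were grouped here by population name into 7 types, among them 3956 principal, 1412 basal and 348 clear cells.

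The epididymal epithelium descends from the Wolffian duct. Its principal cells absorb and secrete along the tube, its clear cells acidify the lumen with the vacuolar H+-ATPase, and its basal cells lie on the basement membrane. Foxi1 is a forkhead factor that drives the genes of proton-pumping cells. Trp63 encodes p63, the p53 family member that marks basal cells of stratified epithelia. Pax2 and Pax8 are paired-box factors needed to build the duct. Cited1 and Cited2 are coregulators without a DNA-binding domain of their own that bind the coactivators CBP and p300. Etv4 and Etv5 belong to the PEA3 group of ETS factors, whose transcription often follows receptor tyrosine kinase and MAP kinase signaling.

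In the RefSeq annotation of mouse build GRCm38.p6, Foxi1 lies at chr11:34204341-34208089, Trp63 at chr16:25683763-25892088, Pax2 at chr19:44746601-44838269 and Pax8 at chr2:24420551-24475599. Cited1 lies at chrX:102247378-102252181, Cited2 at chr10:17723228-17725674, Etv4 at chr11:101769747-101785310 and Etv5 at chr16:22381313-22439570. RefSeq promoter windows were available for 6 of the 8 members, with 11 start sites in all, and Trp63 and Etv4 had none in the table. Stretches of 250 bases before a start site are printed below, because the results turn on which cells held the RNA of these genes, from clear cells for Foxi1 to nearly every type for Cited2. They are read 5′ to 3′ on the gene's strand, with motif matches in capitals. For Pax2 the start with the most CpG dinucleotides is shown and for Cited1 the outermost start and the start with the most. The windows are Foxi1 at chr11:34208090-34208339 (minus strand), Pax2 at chr19:44756656-44756905 (plus), Pax8 at chr2:24475600-24475849 (minus), Cited1 at chrX:102252182-102252431 and chrX:102250777-102251026 (minus), Cited2 at chr10:17722978-17723227 (plus) and Etv5 at chr16:22439571-22439820 (minus).
Foxi1: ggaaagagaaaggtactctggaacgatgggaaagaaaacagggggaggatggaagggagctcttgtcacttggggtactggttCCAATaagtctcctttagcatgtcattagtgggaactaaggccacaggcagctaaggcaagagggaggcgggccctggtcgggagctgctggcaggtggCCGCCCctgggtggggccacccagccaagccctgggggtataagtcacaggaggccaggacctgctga
Pax2: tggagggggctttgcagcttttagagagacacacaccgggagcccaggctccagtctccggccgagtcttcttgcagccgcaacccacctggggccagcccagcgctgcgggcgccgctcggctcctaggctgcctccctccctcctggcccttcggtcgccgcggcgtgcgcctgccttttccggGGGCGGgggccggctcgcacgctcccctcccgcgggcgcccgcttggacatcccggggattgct
Pax8: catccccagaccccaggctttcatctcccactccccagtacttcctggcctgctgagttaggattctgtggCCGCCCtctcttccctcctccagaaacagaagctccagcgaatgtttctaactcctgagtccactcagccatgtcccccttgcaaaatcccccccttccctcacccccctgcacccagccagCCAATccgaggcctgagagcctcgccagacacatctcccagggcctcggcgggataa
Cited1, start 102252181: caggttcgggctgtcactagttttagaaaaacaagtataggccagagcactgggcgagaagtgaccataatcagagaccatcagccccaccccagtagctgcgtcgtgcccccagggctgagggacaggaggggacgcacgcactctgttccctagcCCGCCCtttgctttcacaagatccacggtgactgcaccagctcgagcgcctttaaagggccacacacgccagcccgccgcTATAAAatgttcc
Cited1, start 102250776: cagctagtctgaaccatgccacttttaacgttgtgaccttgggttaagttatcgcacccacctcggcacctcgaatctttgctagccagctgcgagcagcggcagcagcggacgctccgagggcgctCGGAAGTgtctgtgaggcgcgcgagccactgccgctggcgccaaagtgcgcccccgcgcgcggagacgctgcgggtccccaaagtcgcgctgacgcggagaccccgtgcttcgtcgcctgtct
Cited2: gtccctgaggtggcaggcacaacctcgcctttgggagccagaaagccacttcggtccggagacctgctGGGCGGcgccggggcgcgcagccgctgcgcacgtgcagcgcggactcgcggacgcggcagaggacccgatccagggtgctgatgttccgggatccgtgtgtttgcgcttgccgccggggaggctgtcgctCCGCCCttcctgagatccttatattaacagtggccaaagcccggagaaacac
Etv5: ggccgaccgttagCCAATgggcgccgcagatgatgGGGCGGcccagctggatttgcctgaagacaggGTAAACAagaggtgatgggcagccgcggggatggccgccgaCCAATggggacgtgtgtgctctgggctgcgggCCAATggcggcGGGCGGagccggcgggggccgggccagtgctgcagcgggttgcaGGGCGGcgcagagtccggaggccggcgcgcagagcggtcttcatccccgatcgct

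Both strands were searched for the letters TATAAA of a TATA box, for the CCAAT box, for GGGCGG as a GC box, for TGTTTAC as a forkhead motif and for CGGAAGT as an ETS motif, and none of the matches printed above overlapped another. Of 32851 RefSeq promoter windows of this length, 12.4% held TATAAA, 33.8% CCAAT, 32.7% GGGCGG, 3.17% TGTTTAC and 4.92% CGGAAGT. Foxi1 had a CCAAT match at -167 and a GC box at -68, counted from the start site to the first base of the match. Pax8 had the same pair of letters at -57 and -179. The outermost Cited1 start had TATAAA at -13, and the CpG-rich start had the ETS letters at -123. Etv5 held 3 CCAAT matches, 3 GC boxes and, at -183, the forkhead letters. The printed windows held 4 CpG dinucleotides in Foxi1, 6 in Pax8, 25 in Pax2, 26 in Cited2 and 27 in Etv5. The outermost Cited1 start held 13 and the CpG-rich Cited1 start 30. The median over all windows was 6. These matches describe the sequence only, and no binding data were analysed here.

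A level is the number of a gene's UMIs among each 1000000 UMIs that a group of cells held over all genes, written UPM. Because the reads tag 3′ ends, 1 gene is compared between cells, and levels of different genes are not compared. Where the share of 1 gene in the summed UMIs of a pair is given, it depends on how well each is captured. Such a share is compared only between groups of cells. Intervals in parentheses are 95% intervals, exact Poisson for a level, exact conditional binomial for a ratio of levels and Clopper-Pearson for a share of cells. They cover counting error only and not the spread between mice. A gene counted as called where its highest group had 20 UMIs or more and stood 4 times or more above each of the others, with groups under 3 UMIs raised to 3. The libraries held 1433 to 3506 cells and 4408989 to 10744928 UMIs, with medians of 1433 to 2207 UMIs per cell, and 43 cell barcodes occurred in more than 1 library. Of 22 marker genes, 20 were highest in their own type. The exceptions were Itga6, a basal integrin highest in endothelium, and the immune marker Cd52, highest in principal cells. A comparison with simulated doublets called 178 cells doublets, which were kept. The 38 clear cells of the vas deferens stood apart. Of these, 12 were called doublets, their summed level of the 3 clear cell markers was 3858 UPM against 8003 to 8863 in the other libraries, and their summed principal cell markers reached 5927 UPM against 421 to 1883. Where a member's ratio of the highest to the next type involves clear cells, it is also given without these 38, as are the pooled level, shares and subclusters of Foxi1. The other cell types kept their vas deferens cells in those ratios.

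Between the 7 cell types, 3 of the 8 members were called, Foxi1 in clear, Trp63 in basal and Cited1 in principal cells. Of all 12868 genes tested, 10.4% were called, and 1.31% were called with the highest level in clear, 0.552% in basal and 1.95% in principal cells. At a ratio of 2 in place of 4, Pax8 in principal cells and Etv4 in basal cells were added, 5 members in all, against 23.7% of genes. Pax2, Cited2 and Etv5 passed neither ratio. Their highest type was 1.34, 1.35 and 1.66 times the next, near the 1.36 that was the median of all genes tested.

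**Figure D1:**
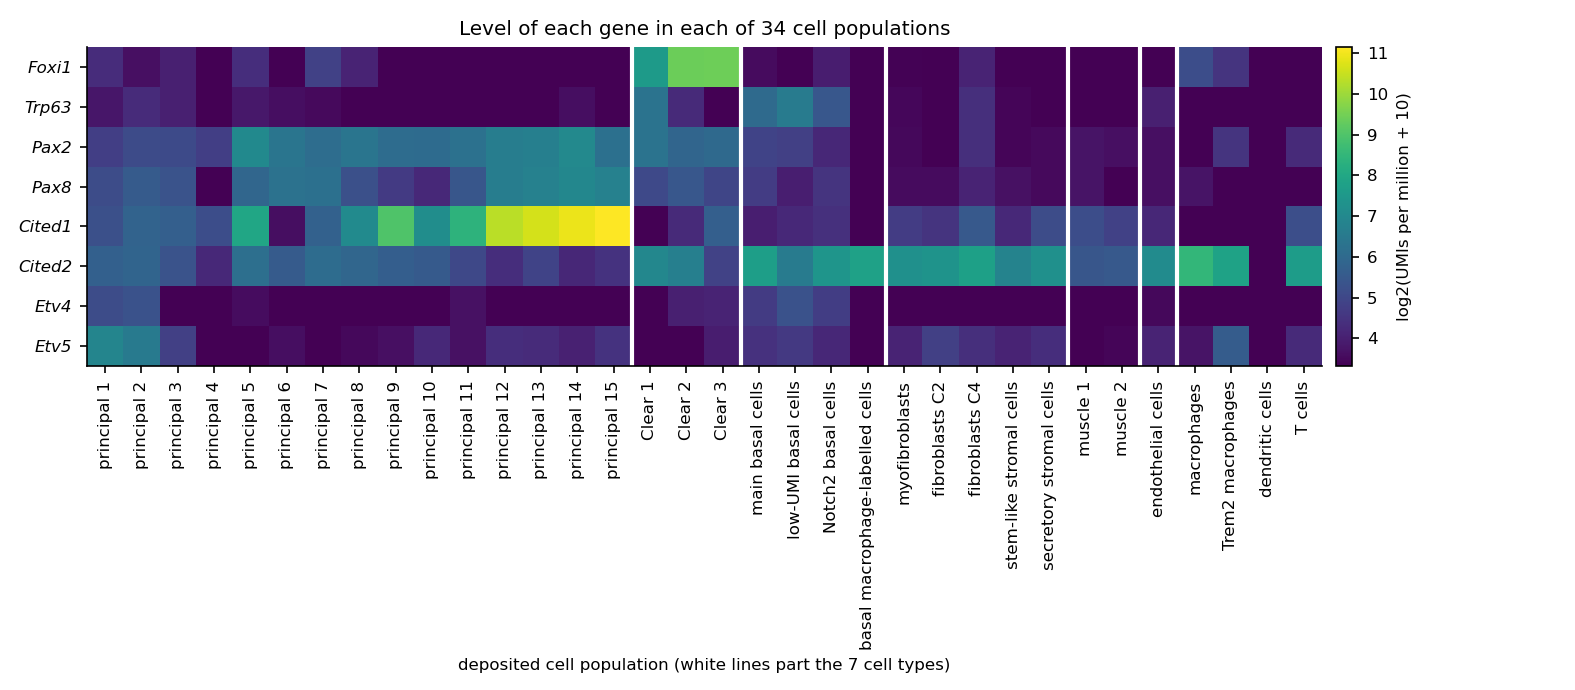
Colour gives log2(UPM + 10) for each of the 8 genes (rows) in each of the 34 deposited populations (columns), with white lines between the 7 cell types. Foxi1 was bright in the 3 clear cell columns, and Cited1 was brightest in principal 12 to 15. Etv5 was brightest in principal 1 and 2, and Cited2 ran through basal, stromal, endothelial and immune columns.

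Foxi1 RNA was found almost wholly in clear cells. Of its 1023 UMIs, 967 (94.5%) lay in the 348 clear cells, a level of 662 UPM (621 to 705). Immune cells had 15.5 UPM from 9 UMIs, 7 of them in a lone macrophage called a doublet. Principal cells had 3.24 UPM from 31 UMIs, 11 of them in 4 called doublets. Basal cells had 2.10 UPM from 13 UMIs and stromal cells 3 UMIs, and muscle and endothelium had none. The clear cell level was 42.8 times (22.4 to 93.9) the immune level and 204 times (143 to 302) the principal level. The first ratio was 86.6 with the vas deferens library left out and 45.6 without its clear cells alone. With called doublets left out it was 195 (53.8 to 1612), which rests on 2 immune UMIs.

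Foxi1 varied widely from cell to cell within the clear cells. It was at 0 UMIs in 145 of them, at 1 in 37, at 2 in 33 and at 3 or more in 133, up to 21 in a cell. When every cell was thinned to 1000 UMIs and shallower cells were left out, Foxi1 was seen in 102 of 238 clear cells, 42.9% (36.5 to 49.4), and in 0 of 1894 principal cells. At a floor of 3 cells the latter allows a share of up to 0.158% of principal cells with a UMI at this depth, which is no limit on cells that express the gene. Without thinning the shares were 58.3% and 0.455%, at median depths of 4430 and 934.5 UMIs. Without the vas deferens cells the clear cell shares were 45.4% thinned and 61.9% unthinned, and the level was 704 UPM. Of 1155 thinned basal cells 1 had a UMI. Thinning left out 2062 principal, 110 clear and 257 basal cells in every comparison of shares below, and the median depth of basal cells was 4333 UMIs and of stromal cells 2716.5.

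By library, clear cell Foxi1 stood at 605 UPM in caput, 745 in corpus, 717 in cauda and 287 in vas deferens, from 161, 348, 415 and 43 UMIs. Corpus and cauda did not differ beyond counting error, with a ratio of 1.04 (0.90 to 1.20), and corpus was 1.23 times (1.02 to 1.49) caput. Corpus was 2.60 times (1.89 to 3.65) vas deferens, and 2.50 times (1.79 to 3.56) within subcluster Clear 3 alone. Of the 43 vas deferens UMIs, 38 were in the 12 called doublets. Among the other cells 5 UMIs and 74.3 UPM remained there, whereas the other libraries kept 605, 752 and 728 UPM.

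The deposited annotation splits clear cells into 3 subclusters. Foxi1 was at 681 UPM in Clear 3, 662 in Clear 2 and 183 in Clear 1, the last from 8 UMIs in 54 cells with a median of 698.5 UMIs. Clear 3 and Clear 2 were alike within counting error (ratio 1.03, 0.88 to 1.20), although Clear 2 held cells of caput and corpus only. Clear 3 was 3.71 times (1.88 to 8.64) Clear 1. Without vas deferens cells Clear 3 stood at 736 UPM and Clear 1 at 235, a ratio of 3.13 (1.58 to 7.28).

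The genes with the pattern closest to Foxi1 included genes for ion transport. By Pearson correlation of log2(UPM + 10) over the 34 populations, among 12370 genes with at least 50 UMIs, the 5 most similar included Atp6v1b1, a proton pump subunit (r = 0.957), Dmrt2, a DM domain factor (0.947), Clic6 (0.946) and Clcn5 (0.946). These correlations describe populations that share libraries and depth. With a pseudocount of 100 in place of 10, 2 of the 5 most similar genes stayed among the first 5. Of 13 listed genes, either dependent on Foxi1 in other organs or regulators of proton-pumping cells, 8 were in the matrix and 6 had enough UMIs. All 6 were highest in clear cells and 5 were called, against 10.4% of all genes and 1.31% called in clear cells. Their median ratio to the next type was 29.3 against 1.36 over all genes. The list holds Atp6v1b1, a clear cell marker here, and Atp6v1a, a clear cell marker in the paper. A high level in clear cells was thus largely set by the choice of list, and is no support for a link to Foxi1. Tfcp2l1, a factor of acid-secreting cells, reached 682 UPM and was 38.7 times the next type. Atp6v1a, the catalytic pump subunit, reached 942 UPM and was 6.69 times immune cells. Car2, a carbonic anhydrase, was not called, at 207 UPM in clear and 170 UPM in basal cells. Slc26a4 and Slc4a9, anion exchangers of acid-base cells elsewhere, had only 1 and 25 UMIs in the whole matrix.

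Trp63 was read mostly in basal cells. They held 332 of its 367 UMIs, 53.7 UPM (48.1 to 59.8). Endothelial cells had 5.99 UPM from 5 UMIs, clear cells 4.10 from 6, principal cells 1.67 from 16 and stromal cells 1.23 from 8, and muscle and immune cells had 0. The basal level was 8.97 times (3.81 to 27.8) the endothelial and 32.1 times (19.5 to 56.8) the principal level. With cells weighted equally the first ratio was 15.9, and with the deposited size factors 14.5. Endothelial, clear, principal and stromal levels, taken as neighbours in that order, did not differ beyond counting error. Of the 16 principal cell UMIs, 12 were in the caput.

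Within basal cells Trp63 was highest in the caput. Levels were 118 UPM in caput, 36.5 in corpus, 23 in cauda and 39.2 in vas deferens, from 167, 90, 22 and 53 UMIs. Caput was 3.02 times (2.20 to 4.19) vas deferens, 3.24 times (2.49 to 4.24) corpus and 5.15 times (3.29 to 8.43) cauda. Vas deferens and corpus were alike within counting error (1.07, 0.75 to 1.52). Basal cells had median depths of 3647 to 5821 UMIs in the 4 libraries, and the summed level of the basal markers Krt5, Krt14 and Itga6 was lowest in caput, at 2821 UPM, and 3396 to 3954 UPM elsewhere. Between basal libraries 0 of the 6 members tested was called at 4 times, against 1.86% of genes, and Trp63 and Etv5 passed at 2 times, against 9.47%.

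The caput excess also appeared within the main basal population and in shares of cells. In main basal cells alone caput was 3.11 times (2.22 to 4.44) vas deferens. After thinning, Trp63 was seen in 5.63% of basal cells (65 of 1155) and 0.158% of principal cells. The thinned share was 12.7% in caput, 4.02% in corpus, 1.18% in cauda and 4.66% in vas deferens, against 15.6% of all basal cells without thinning. By population, low-UMI basal cells stood at 85.5 UPM, main basal cells at 54.7 and Notch2 basal cells at 33.2, while the 15 cells labelled as basal macrophages had no Trp63 UMI. Low-UMI cells were 2.57 times (1.45 to 4.62) Notch2 cells, but their make-up by library differed. Within corpus, the library with the most UMIs in both, the levels were 67.4 and 52.2 UPM, which did not differ beyond counting error (1.29, 0.53 to 2.99).

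The genes with patterns most like Trp63 were Ces2e (r = 0.916), Fat2, a protocadherin (0.912), Fgfbp1, an FGF carrier (0.905), the keratin Krt17 (0.896) and Tmem171 (0.893). Of 17 listed basal epithelial genes and p53 family members, all were in the matrix, 16 were tested, and 13 of those were highest in basal cells. Of these, 9 were called, against 10.4% of all genes and 0.552% called in basal cells. The median ratio to the next type was 4.44, against 1.36 over all genes. The list holds Krt5, Krt14 and Itga6, the basal markers used here. A high level in basal cells was thus largely set by the choice of list, and is no support for a link to p63. Krt14 reached 2880 UPM in basal cells, 58.7 times the next type, Sfn, an epithelial 14-3-3 protein, 1828 UPM and Krt17 958 UPM. Perp, a desmosome protein, had 897 UPM but was only 3.36 times clear cells. The relative Trp73 had 4 UMIs in all, and Trp53 was broad, with stromal cells highest at 94.8 UPM.

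Pax2 was read in principal and clear cells at similar levels. Principal cells stood at 71.7 UPM (66.5 to 77.3) from 686 UMIs, clear cells at 53.4 (42.2 to 66.6) from 78, and basal cells at 18.1 from 112. Stromal, muscle, endothelial and immune cells stood at 1.54 to 3.44 UPM. Principal was 1.34 times (1.06 to 1.72) clear and 3.96 times (3.24 to 4.88) basal. Without the vas deferens clear cells the first ratio was 1.49. The order of principal and clear cells turned when cells were weighted equally (ratio 0.749). After thinning, Pax2 was seen in 6.97% of principal, 7.14% of clear, 1.65% of basal and 0.236% of stromal cells. Without thinning these shares were 11.5%, 18.1%, 6.73% and 0.450%.

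Pax8 was also highest in principal cells. They had 64.7 UPM (59.7 to 70.0) from 619 UMIs, clear cells 23.9 (16.7 to 33.3) from 35 and basal cells 15.4 (12.4 to 18.8) from 95. Principal was 2.70 times (1.92 to 3.92) clear, and 1.47 times with the vas deferens library left out. That ratio was 1.26 with cells weighted equally, 1.75 with the deposited size factors and 2.57 without the vas deferens clear cells alone. After thinning, Pax8 was seen in 5.54% of principal, 3.36% of clear, 1.13% of basal and 0.118% of stromal cells. Without thinning these shares were 10.3%, 8.91%, 5.67% and 0.630%.

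**Figure D2:**
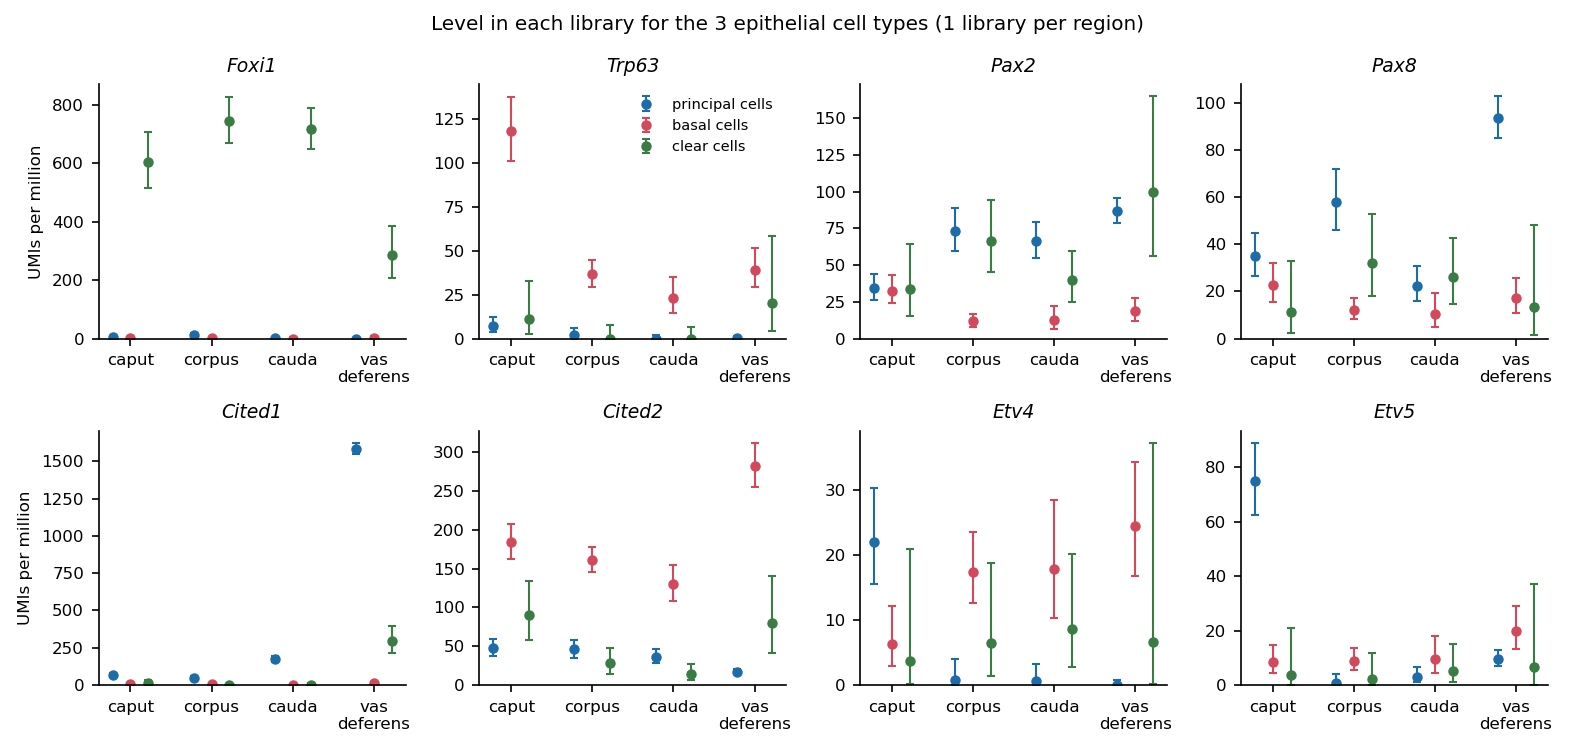
Points give UPM in the principal, basal and clear cells of each library, on a linear axis from 0 that differs between genes, and bars are exact Poisson 95% intervals for counting error. Cited1 in principal cells stood at 1585 UPM in the vas deferens and 48.6 to 174 elsewhere, Etv5 at 74.8 UPM in the caput and 0.704 to 9.61 elsewhere, and Trp63 in basal cells at 118 UPM in the caput.

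In principal cells the paired-box genes parted in the cauda. Pax2 stood at 34.2 UPM in caput, 73.3 in corpus, 66.1 in cauda and 87.1 in vas deferens. Pax8 stood at 34.8, 57.8, 22.4 and 93.5 UPM. Both were lowest or next to lowest in the caput and highest in the vas deferens, but only Pax8 was low in the cauda. Vas deferens was 1.19 times (0.96 to 1.49) corpus for Pax2, which is within counting error, and 1.62 times (1.28 to 2.07) for Pax8. It was 2.55 times (1.93 to 3.40) caput for Pax2 and 4.17 times (3.00 to 5.95) cauda for Pax8. Pax8 made up 50.4% of the summed Pax2 and Pax8 UMIs in caput (41.1 to 59.7), 44.1% in corpus, 25.3% in cauda (18.7 to 32.95) and 51.8% in vas deferens (48.3 to 55.2).

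In basal cells Pax2 was highest in the caput. It was 32.6 UPM in caput, 11.8 in corpus, 12.5 in cauda and 18.5 in vas deferens. Caput was 1.76 times (1.06 to 2.99) vas deferens, the next library. In main basal cells alone that ratio was 1.69 (0.995 to 2.95), which is within counting error. Principal and basal cells of the caput did not differ beyond counting error (1.05, 0.70 to 1.58), while principal cells were 6.23 times basal in corpus, 5.27 times in cauda and 4.71 times in vas deferens. In the clear cells of the vas deferens, the cells that stood apart, 15 UMIs of Pax2 and 2 of Pax8 were counted.

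Of the 15 principal subclusters, 1 to 11 are numbered from the proximal to the distal end of the epididymis, after the segments the paper assigned them. Principal 12 to 15 are vas deferens subclusters, and their numbers give no position within it. Pax2 was at 17.4 to 24.9 UPM in principal 1 to 4, stood at 122 in principal 5, lay between 56.6 and 72.8 in principal 6 to 11 and between 64.5 and 118 in principal 12 to 15. Principal 5 was 6.90 times (3.40 to 15.8) principal 1 and did not differ from principal 14 beyond counting error (1.03, 0.70 to 1.52). Pax8 was at 25.5 to 37.9 UPM in principal 1 to 3, at 0 in the 74 cells of principal 4, at 68.1 in principal 6, at 8.50 in principal 10 and at 90.7 to 114 in principal 12 to 15. The 0 in principal 4 allows up to 26.1 UPM at a floor of 3 UMIs, and the level in principal 10 rests on 3 UMIs. The distal 12 to 15 were 2.66 times (2.24 to 3.18) the rest for Pax8 and 1.57 times (1.34 to 1.83) for Pax2. In principal 10 Pax8 made up 13.04% (2.78 to 33.6) of the summed UMIs, and in principal 15 60.4% (51.6 to 68.8).

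Cells with a Pax2 UMI did not hold Pax8 more often than other cells beyond counting error. Among thinned principal 12 to 15 cells, Pax8 was seen in 11.3% of cells with Pax2 (4.66 to 21.9) and in 8.94% of cells without (6.87 to 11.4). Across the 34 populations, in contrast, the correlation between Pax2 and Pax8 was the highest between members, with r = 0.86. Pax2 was most like Frk, a kinase (0.911), Gm5617 (0.906), Stard10 (0.902), Tjp3, a tight junction protein (0.898), and Sgpp1 (0.893). Pax8 was most like Rassf7 (0.890), Gm5617 (0.884), Cbr1 (0.879), Rab25 (0.868) and Pax2.

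Of 19 other factors listed for duct and kidney development, 12 were in the matrix, 8 were tested and 1 was called between types, Eya1 in muscle, a share of 12.5% against 10.4% of all genes. The median ratio to the next type was 1.72, against 1.36 over all genes. Gata3 stood at 144 UPM in principal and 169 in clear cells, and in principal cells at 226 UPM in vas deferens and 35.4 in caput. Gata2, which was near 155 UPM in stroma, reached 178 UPM in vas deferens principal cells against 1.16 in caput. Emx2 stood at 72.0 UPM in principal and 37.8 in basal cells.

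**Figure D3:**
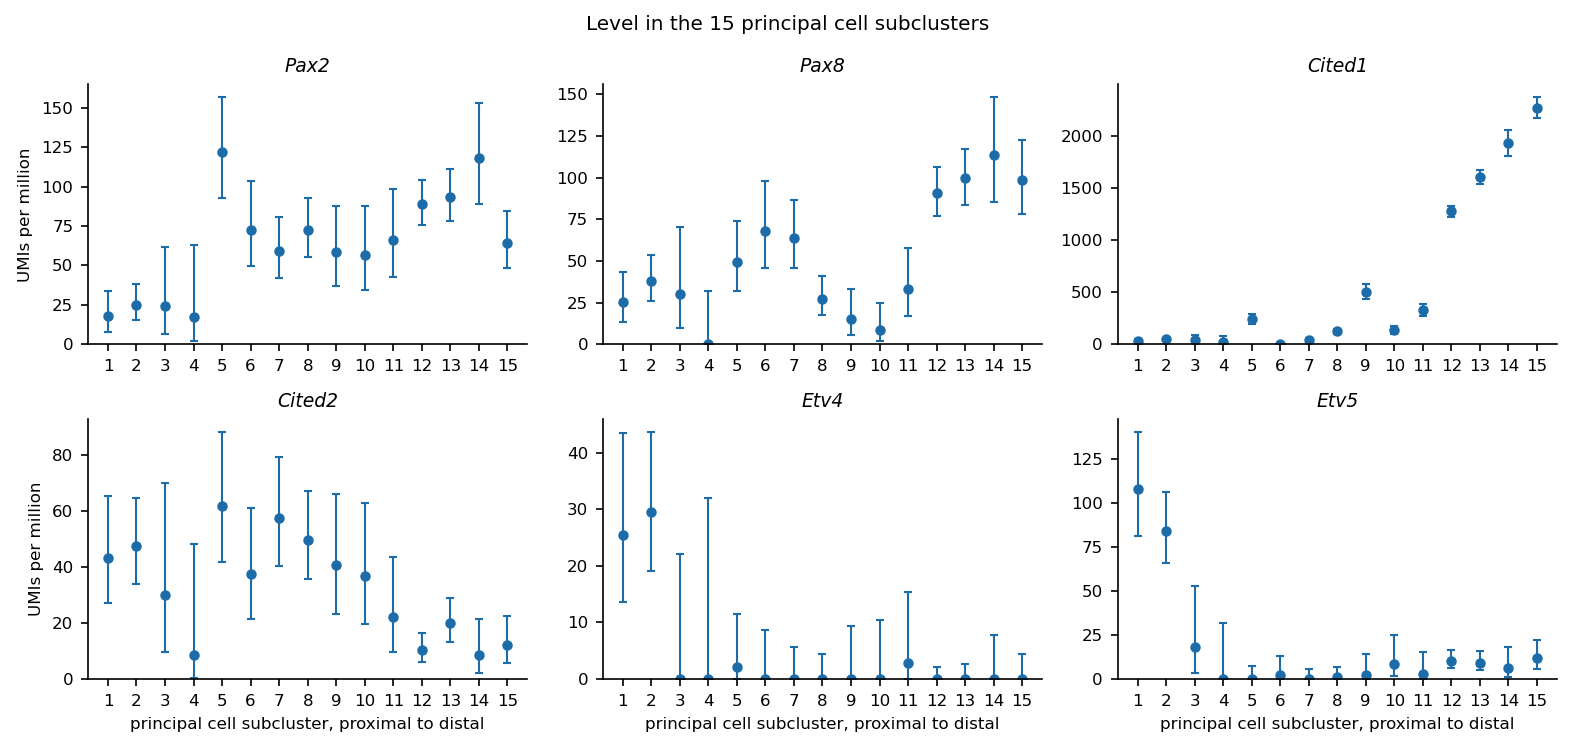
Points give UPM in principal subclusters 1 to 15 for 6 genes on linear axes from 0, and bars are exact Poisson 95% intervals for counting error. Subclusters 1 to 11 run proximal to distal along the epididymis, and 12 to 15 are vas deferens subclusters without a known order. Cited1 reached 2268 UPM in principal 15, Cited2 was lowest among the distal subclusters and principal 4, the latter from 1 UMI, and Etv4 and Etv5 were highest in principal 1 and 2.

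Cited1 was read mainly in the principal cells of the vas deferens. Between principal cell libraries, 3 of the 6 members tested were called, Cited1 in vas deferens and Etv4 and Etv5 in caput, against 6.12% of 9854 genes, 1.45% with the highest level in vas deferens and 2.75% in caput. Cited1 had 8143 UMIs in 1176 cells, up to 76 in a cell, and 7907 lay in principal cells. Levels were 827 UPM (809 to 845) in principal, 33.5 in clear, 20.3 in muscle, 16.3 in stromal, 8.38 in endothelial, 6.47 in basal and 5.15 in immune cells. Principal was 24.7 times (18.6 to 33.4) clear. This ratio was 6.08 when libraries were averaged, 10.3 with cells weighted equally and 15.3 with the deposited size factors. Of the 49 clear cell UMIs, 44 came from 4 vas deferens cells, 26 of them from a single cell. Without the vas deferens clear cells the ratio was 217, but principal cells kept their vas deferens cells there, so the regions were not matched. Outside the vas deferens, clear cells stood at 3.81 UPM and principal cells at 48.6 to 174 UPM by library.

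In principal cells Cited1 stood at 66.7 UPM in caput, 48.6 in corpus, 174 in cauda and 1585 in vas deferens, from 115, 69, 302 and 7421 UMIs. Vas deferens was 9.13 times (8.14 to 10.3) cauda and 32.6 times (25.7 to 41.9) corpus, cauda was 2.60 times (2.09 to 3.25) caput, and caput was 1.37 times (1.01 to 1.88) corpus. Every neighbouring pair of libraries in that order differed beyond counting error. After thinning, Cited1 was seen in 68.4% of vas deferens, 13.4% of cauda, 6.43% of caput and 3.76% of corpus principal cells. Over all principal cells the share was 32.8% thinned and 27.1% unthinned, against 0.779% and 1.77% of basal cells. Thinning kept 722 of 1217 cells of principal 12 to 15 but 1172 of 2739 of principal 1 to 11. The thinned share over all principal cells is thus tilted to the vas deferens, for Cited1 as for Pax2 and Pax8.

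By subcluster, Cited1 was at 26.1 to 46.2 UPM in principal 1 to 4, at 239 in principal 5 and at 2.35, from 1 UMI, in principal 6. Principal 7 stood at 43.5 UPM, but 23 of its 28 UMIs came from 1 cell. Principal 8 to 11 stood at 125, 499, 133 and 326 UPM, and principal 12 to 15 at 1277, 1606, 1928 and 2268. The distal 4 subclusters were 12.5 times (11.5 to 13.5) the rest. Principal 11 held cells of both cauda and vas deferens, and there the vas deferens cells were 3.62 times (2.47 to 5.35) the cauda cells. In principal 9 the same ratio was 2.80 (2.09 to 3.77).

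The number of Cited1 UMIs per cell was unusual in the vas deferens library. No vas deferens cell of any type had exactly 1 Cited1 UMI, although 172 had 2 and 667 had 3 or more. In caput 70 cells had 1, 17 had 2 and 8 had more, in corpus 48, 11 and 7, and in cauda 115, 31 and 30. Such a gap was not limited to this gene. Of 2738 genes with at least 2 UMIs in at least 100 vas deferens cells, 246 (8.98%) had no cell with exactly 1, as did 328 of 1320 genes in caput, 294 of 1906 in corpus and 258 of 1460 in cauda. Cited1 was the only member with the gap, and only in vas deferens. UMIs assigned to cell-free RNA had been removed before deposit, and the matrix totals lay 2.80% (vas deferens) to 4.48% (caput) below the totals listed in the cell annotation. The part of that removal in the gap was not tested. Counting only cells with at least 2 Cited1 UMIs in every library, the vas deferens to cauda ratio was 13.5, and the principal to clear ratio was 25.7.

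**Figure D4:**
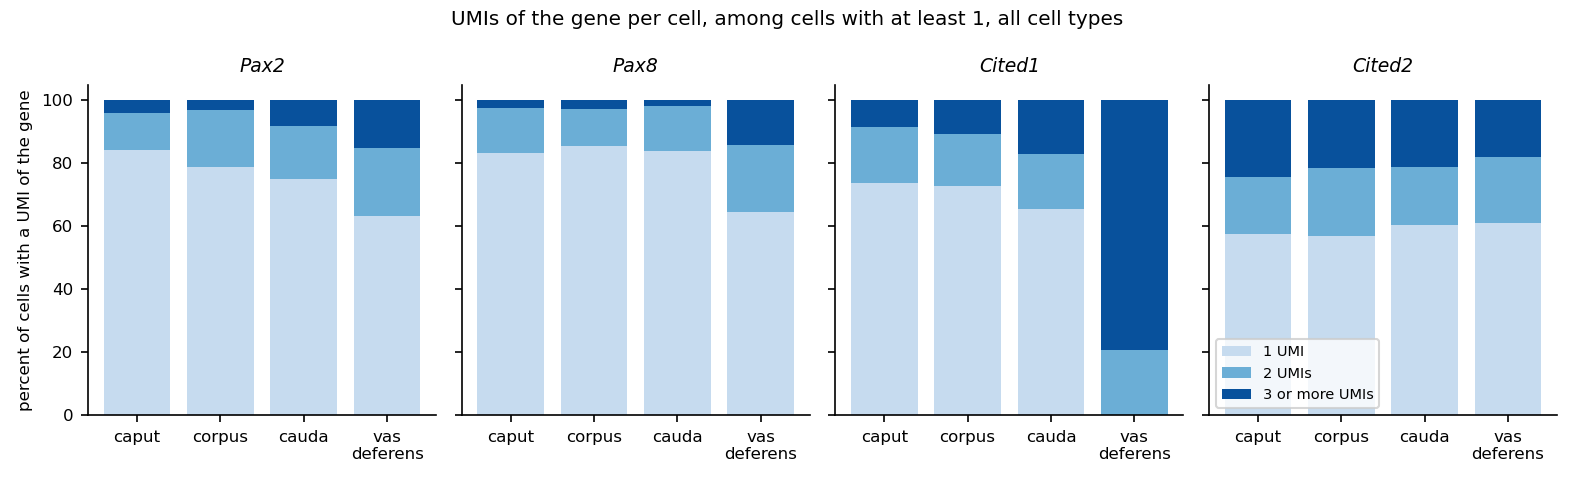
Stacked bars give, for 4 genes and 4 libraries, the percent of cells with 1, 2, and 3 or more UMIs of the gene among cells of all types with at least 1. The Cited1 bar of the vas deferens has no part for 1 UMI (0 of 839 cells), while the other 15 bars have one.

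Cited1 was most like Itga2b, an integrin chain (r = 0.920), Prr15 (0.910), Neb, nebulin (0.905), Bcl2l14 (0.891) and Ropn1l (0.884). Its r was 0.70 with Pax8, 0.68 with Pax2 and -0.57 with Cited2. Within principal 12 to 15, Pax8 was seen in 8.20% of thinned cells with Cited1 (5.98 to 10.9) and in 11.4% of cells without (7.46 to 16.5).

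Cited2 was the broadest member and was lower in principal cells than in most others. Levels were 253 UPM (213 to 297) in immune, 188 (177 to 199) in basal, 140 (131 to 149) in stromal, 128 (105 to 155) in endothelial, 39.0 in clear, 34.8 in muscle and 30.3 (26.9 to 34.02) in principal cells. Immune was 1.35 times (1.13 to 1.60) basal, 2.25 times without the vas deferens library and 2.50 times with the deposited size factors, and 8.33 times (6.78 to 10.2) principal. After thinning, the shares of cells with a UMI were 15.8% in immune, 14.1% in basal, 9.38% in stromal, 9% in endothelial, 5.46% in clear, 3.01% in principal and 2.75% in muscle cells. Without thinning they were 27.7%, 32.6%, 23.04%, 20.8%, 8.62%, 5.03% and 8.17%.

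Cited2 was lowest in the vas deferens among principal cells and highest there among basal cells. In principal cells it was 47.6 UPM in caput, 45.8 in corpus, 36.2 in cauda and 17.1 in vas deferens, and in basal cells 184, 161, 130 and 282 UPM. In principal cells caput was 2.78 times (2.02 to 3.84) vas deferens. In basal cells vas deferens was 1.54 times (1.31 to 1.81) caput and 2.18 times (1.77 to 2.69) cauda. Basal cells were shallower in vas deferens (median 3647 UMIs) than in the other libraries. They also held more of the summed markers of other types, at 88.1 UPM for endothelial markers against 14.2 to 16.7 in the other libraries, 225 against 23.4 to 114 for muscle and 122 against 36.5 to 63.8 for stromal markers, and the part of these in the difference was not tested. Principal 1 to 11 were 3.30 times (2.47 to 4.46) principal 12 to 15, which stood at 8.43 to 20.04 UPM.

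The balance of Cited1 and Cited2 differed between regions and cell types. Cited1 made up 58.4% of the summed UMIs of both genes in caput principal cells, 51.5% in corpus, 82.7% in cauda and 98.9% in vas deferens, but 3.33% in basal cells. Among immune populations Cited2 was at 355 UPM in macrophages, 216 in Trem2 macrophages and 190 in T cells, with no UMI in the 21 dendritic cells. In clear cells it was 115 UPM in Clear 1, 94.1 in Clear 2 and 19.3 in Clear 3. Without vas deferens cells Clear 1 had no UMI of it and Clear 3 stood at 14.8 UPM. Cited2 was most like Plk2 (0.794), Zfp703 (0.792), Csrnp1 (0.788), Gbp3 (0.781) and Gas6 (0.770), the weakest leading correlations of any member.

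Of 10 listed partners, relatives and targets of the Cited proteins, 8 were in the matrix, 7 were tested and 0 were called between types, against 10.4% of all genes. Their median ratio to the next type was 1.37, against 1.36 over all genes. The coactivator Crebbp stood at 47.7 UPM in principal cells and 112 in stromal cells, where it was highest. Hif1a, the hypoxia factor that competes with CITED2 for p300, stood at 75.0 UPM in principal cells and 553 in endothelium. Tfap2b, an AP-2 factor, was highest in principal cells at 57.7 UPM. Cited4 stood at 74.1 UPM in principal cells and 102 in muscle.

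Etv4 was sparse, with 153 UMIs in 140 cells, and was read in basal cells and in the most proximal principal cells. Basal cells had 16.5 UPM (13.5 to 20.02) from 102 UMIs, clear cells 6.84 from 10 and principal cells 4.18 from 40. Endothelium had 1 UMI, and stromal, muscle and immune cells had 0, so that basal was at least 35.7-fold higher than stroma against a floor of 3 UMIs over the stromal group. Basal was 2.41 times (1.26 to 5.18) clear and 3.94 times (2.71 to 5.84) principal. The first ratio was 4.23 with cells weighted equally and 5.16 with the deposited size factors, both above the ratio of 4 used for calls, and 2.40 without the vas deferens clear cells. After thinning, 1.65% of basal and 0.370% of principal cells had a UMI, and without thinning 6.59% and 0.910%.

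The principal cell UMIs of Etv4 were nearly all in the caput. Caput had 38 UMIs (22.05 UPM), corpus 1, cauda 1 and vas deferens 0. Caput was 31.3 times corpus, with a wide interval of 5.29 to 1268, and 83 times with cells weighted equally. It was at least 34.4-fold higher than vas deferens against 3 UMIs in that library's principal cells. All 38 lay in principal 1, with 13 UMIs and 25.5 UPM, and principal 2, with 25 UMIs and 29.6 UPM. Principal 3, which was also wholly caput, had 0 among 151 cells with a median of 565 UMIs, which allows up to 18.04 UPM at a floor of 3 UMIs. In basal cells the order was the opposite, with 6.38 UPM in caput, 17.4 in corpus, 17.8 in cauda and 24.4 in vas deferens, and vas deferens was 3.83 times (1.79 to 9.10) caput.

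Etv5 was also high in the proximal principal cells, and it was read in more types. Principal cells had 18.8 UPM (16.2 to 21.8) from 180 UMIs, basal 11.3 (8.82 to 14.3) from 70, immune 8.59 from 5, stromal 8.48 from 55, endothelial 7.18 from 6, clear 4.10 from 6 and muscle 0.656 from 1. Principal was 1.66 times (1.25 to 2.22) basal. That order rested on the caput library, without which principal was 0.535 times basal, and without vas deferens it was 3.11 times. After thinning, 1.69% of principal, 0.952% of basal and 0.531% of stromal cells had a UMI, and without thinning 3.24%, 4.75% and 2.30%.

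In principal cells Etv5 stood at 74.8 UPM in caput, 0.704 in corpus, 2.87 in cauda and 9.61 in vas deferens, from 129, 1, 5 and 45 UMIs. It was high at the proximal end, near 0 in the middle and present again at the distal end. Caput was 7.79 times (5.51 to 11.2) vas deferens and 26.04 times (10.9 to 81.6) cauda, and vas deferens was 3.34 times (1.33 to 10.8) cauda. Principal 1 stood at 108 UPM, principal 2 at 84.1 and principal 3 at 18.04. Principal 4, 5 and 7 had no UMI, which for principal 4 allows up to 26.1 UPM at a floor of 3 UMIs. Principal 12 to 15 had 6.32 to 12.2 UPM. In basal cells vas deferens was highest at 19.98 UPM, against 8.50 to 9.41 elsewhere, and was 2.35 times (1.15 to 5.09) caput. It did not differ beyond counting error from cauda, the next library (2.12, 0.97 to 5.13), and these are the basal cells with more endothelial, muscle and stromal markers.

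When principal 1 and 2, 3 to 11 and 12 to 15 were set against each other, 3 of the 7 members tested were called, Etv4 and Etv5 in 1 and 2 and Cited1 in 12 to 15, against 7.9% of 10050 genes. Principal 1 and 2 were 53.1 times (13.7 to 454) principal 3 to 11 for Etv4, where 2 UMIs were counted, and 35.2 times (18.5 to 75.2) for Etv5. After thinning, Etv5 was seen in 9.76% of the cells of principal 1 and 9.52% of those of principal 2, and without thinning in 23.6% and 12.5%. Etv4 was seen in 2 of 24 thinned cells of principal 1 and 2 with Etv5 and in 4 of 226 without, shares whose intervals overlap. Over the 34 populations r was 0.58 between Etv4 and Etv5 and 0.60 between Trp63 and Etv4.

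Etv4 was most like Slc45a3 (r = 0.880), Plek2 (0.860), the connexin Gjb6 (0.839), Prn (0.839) and Rimklb (0.797), and Etv5 most like Shc4, an adaptor protein (0.878), Gm5916 (0.794), Adam28 (0.785), Gm17677 (0.782) and the lipocalin Lcn10 (0.780). Of 28 genes listed for receptor tyrosine kinase signaling and the PEA3 group, 25 were tested between types and 1 was called, Fgfr3, an FGF receptor, in basal cells at 52.6 UPM, against 10.4% of all genes. Their median ratio to the next type was 1.49. Between principal cell libraries 20 were tested and 2 called, both in caput, against 6.12% of all genes. Ros1, a receptor kinase needed in the initial segment, stood at 60.3 UPM in caput, 12.7 in corpus, 0 in cauda and 1.28 in vas deferens. Spry1, a feedback inhibitor of receptor kinases, stood at 58.0, 10.6, 6.32 and 5.34 UPM. The third PEA3 member, Etv1, was highest in stromal cells at 41.2 UPM and stood at 6.48 UPM in principal cells. Among principal cells Etv1 was also highest in caput, at 16.2 UPM, against 1.41 in corpus, 2.87 in cauda and 5.77 in vas deferens, but it was not called.

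Of 20 other epithelial factors listed for comparison, 19 were tested and 4 were called between types, Elf5 in principal and Klf5, Ovol1 and Foxa1 in basal cells, against 10.4% of all genes, with a median ratio of 2.05. Between principal cell libraries 2 of 18 were called, against 6.12% of all genes. Elf5, an ETS factor, stood at 40.6 UPM in vas deferens, and Runx1 at 142 UPM in caput, 25.4 in corpus, 7.47 in cauda and 4.06 in vas deferens. Among clear cell libraries 1 of 4 members tested was called, Cited1 in vas deferens, against 1.16% of genes, and that call rested on the 4 cells named above.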

How the data were processed

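Single cells of dissociated tissue were captured on 10X Chromium. Per the submitters' notes and the methods of the study, reads were aligned to mm10 with HISAT2 2.0.4 and counted as UMIs at 3′ ends, low and high barcodes were removed, and reads assigned to cell-free RNA were subtracted with a modified SoupX. The deposited matrix holds these counts (whole UMI counts per gene and cell, not normalized). The 7 types were grouped here from the deposited populations. The authors' deposited cell table gives population and library. Its UMI totals per cell, also counts, were used only for the share removed.

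Counts were summed over the cells of each group and divided by the group's total (Python 3.11.15, numpy 2.4.6, scipy 1.17.1, pandas 2.3.3). Sums hold 4408989 to 10744928 UMIs per library. With 1 library per region no test was run. Cells were thinned to 1000 UMIs for shares. Doublets were simulated per library at 0.8% per 1000 cells (scikit-learn 1.9.0) and kept. The call rule, run on simulated counts for 16892 genes, called 100 of 100 genes with a true ratio of 8 and 0 of 100 with a ratio of 2. For each member the 5 most similar genes were named, and up to 4 genes per list by UMIs in the member's cell type, with a few more chosen after their values were seen and some not reported here. Members and lists were chosen with earlier results of these data known, so none is independent support. 178 alternatives were planned, and 8 were added after the data were seen.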

Additional observations from a re-analysis of the deposited data

Results flagged for a closer look

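The ratio of principal to another epithelial cell type turned between libraries for 3 members. Each difference was seen with 1 library per region and was not tested. Cited2 in principal cells was 2.62 times (1.25 to 6.33) clear cells in cauda, but 0.527 times (0.331 to 0.869) in caput and 0.213 times (0.116 to 0.430) in vas deferens, where the clear cells stood apart. Caput clear cells held 790 UPM of the summed stromal markers, against 79.4 to 296 in the clear cells of the other libraries. In caput, as in cauda, 2 of these 3 markers had no UMI in clear cells, so the caput sum rests on 1 marker. Stromal cells were higher in Cited2 than clear cells. The part of stromal RNA in the turn was not tested. Etv4 in principal cells was 3.46 times (1.64 to 8.13) basal cells in caput, but 0.0404 times in corpus and 0.0323 times in cauda, from 1 principal cell UMI in each of the last 2. Etv5 in principal cells was 8.80 times (4.87 to 17.5) basal cells in caput, but 0.0790 times in corpus, from 1 UMI, and 0.481 times (0.292 to 0.806) in vas deferens.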

How the results depend on the processing

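With 1 library per region, leaving out a library leaves out a region. Over the 4 such settings the ratio of the highest to the next cell type ran from 32.7 to 86.6 for Foxi1, 7.99 to 10.99 for Trp63, 1.17 to 1.51 for Pax2, 1.47 (without vas deferens) to 3.28 for Pax8, 18.3 (without cauda) to 26.1 for Cited1, 1.16 to 2.25 (without vas deferens) for Cited2, 2.08 to 2.87 for Etv4, and 0.535 (without caput) to 3.11 (without vas deferens) for Etv5. Weighting each cell equally gave 0.749 for Pax2, 1.26 for Pax8 and 10.3 for Cited1, and 7.77 for the library ratio of Cited1. Dividing by the deposited size factors gave 1.75 for Pax8, 15.3 for Cited1 and 2.50 for Cited2, and 6.78 for the library ratio of Cited1. Averaging libraries gave 6.08 for Cited1, and leaving out called doublets gave 195 for Foxi1, from 2 immune UMIs. For Etv4 the first 2 of these settings gave 4.23 and 5.16, which crossed the ratio of 4. Of 8 alternatives chosen after seeing the data, leaving out vas deferens clear cells, but not vas deferens principal cells, gave 217 for Cited1. Counting cells with at least 2 UMIs gave 13.5 for its library ratio, and the other 6 moved nothing beyond counting error. Shares of cells with a UMI in each member's highest cell type were computed with 500 UMIs, without thinning and at 2 or more UMIs. In that order they were 22.7%, 58.3% and 15.1% for Foxi1, 2.84%, 15.6% and 0.519% for Trp63 and 2.92%, 11.5% and 0.370% for Pax2. For Pax8 they were 2.37%, 10.3% and 0.370%, for Cited1 19.9%, 27.1% and 19.5%, and for Etv5 0.628%, 3.24% and 0.158%. Without thinning and at 2 or more UMIs they were 27.7% and 3.80% for Cited2 and 6.59% and 0% for Etv4. At ratios of 2 and 8, 3055 and 696 genes were called between types and 1878 and 280 between principal cell libraries, against 1339 and 603 at 4. With a pseudocount of 100, or with populations of at least 50 cells alone, 1 to 5 of each member's 5 most similar genes were shared with those named. Of the ratios, shares and counts computed under alternatives, 117 stayed within counting error or 1.5 times the main count and 43 did not. The cause of these shifts was not tested. No paired analysis was possible because each region had 1 library. Counts under 3 UMIs limit the ratios of Etv4 and Etv5 between principal cell libraries.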
